A study of Arabidopsis thaliana with 4 samples.

Results

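Cutin synthesis genes were followed in osmotically stressed Arabidopsis thaliana seedlings of 2 genotypes. The set was given as 10 loci, all with a known part in cutin formation, by a rule that uses no measured value: BDG1 (AT1G64670), LACS2 (AT1G49430), CYP86A2 (AT4G00360), CYP86A4 (AT1G01600), CYP86A8 (AT2G45970), GPAT4 (AT1G01610), GPAT6 (AT2G38110), GPAT8 (AT4G00400), DCR (AT5G23940, PEL3 in RefSeq) and HTH (AT1G72970). Earlier results of these data were known, however, when the members were chosen. All 10 were on the array, out of 25356 genes that could be named, and all 10 were bright enough to be tested.

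Both groups were seedlings of ecotype gl1-Col0, grown for 14 d on MS plates and then placed in 40% polyethylene glycol (PEG), which draws water out of tissue, for 6 h. The WT group carried NCED3pro:LUC, a luciferase gene driven by the promoter of the abscisic acid synthesis gene NCED3, and the other group was the ced2 mutant, whose affected gene the labels do not name. Neither group included unstressed seedlings, so a response to PEG itself was not measured. Each of the 2 RNA samples of a genotype, given as biological replicates, was a pool of 20 whole seedlings, hybridised to its own one-colour Agilent array. The gl1 background of both groups is known for leaves without trichomes, which are epidermal hairs.

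Cutin is the polyester that forms the framework of the plant cuticle, the outer skin of the shoot epidermis that limits water loss. Long-chain acyl-CoA synthetases activate fatty acids, cytochromes P450 of the CYP86A subfamily add a hydroxyl group to the end of the chain, glycerol-3-phosphate acyltransferases join the acyl chains to glycerol, and further enzymes complete and assemble the monomers outside the cell. BDG1 encodes an epidermal hydrolase needed for a normal cuticle. RefSeq lists CED1, for 9-cis epoxycarotenoid dioxygenase defective 1, as another name of BDG1, a name of the same form as ced2.

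The deposited labels disagree about which genotype is which. In the authors' deposited value table, each of the 4 columns carried the numbers of an array whose scanner file names the opposite genotype (r = 0.999999 across probes, with 100% of values within 0.01). All directions here follow the labels of the scanner files, from which the WT arrays and ced2 arrays (or files) take their names, and every sign would turn under the table's labels. Transcripts of the vacuolar sorting receptor VSR1 stood 12.7-fold lower in the ced2 files and those of NCED3 2.51-fold lower (limma adjusted p = 0.00016 and 0.000161). The 75th percentile of the processed signal lay between 2807 and 4465 on the 4 arrays. The arrays lay on 1 slide, WT at positions 1 and 2 and ced2 at 4 and 3, and effects of position and of genotype cannot be told apart.

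Of the 10 cutin synthesis genes, 5 were higher in the ced2 files, 2 were lower and 3 did not pass the test. HTH rose 2.15-fold, GPAT8 1.61-fold and LACS2 1.49-fold, CYP86A4 fell 1.51-fold, and BDG1, GPAT6 and DCR did not pass. The threshold was a limma adjusted p of 0.05 over all 20835 genes tested. Over all of these genes 77.9% passed, 42.4% as higher and 35.6% as lower, so 7 of 10 is a share near the background and is not a result about the set. Only HTH both passed and differed by at least 2-fold, against 11.3% of all genes (8.01% as higher and 3.32% as lower). The median log2 difference of the 10 genes was 0.08, against 0.05 for all genes tested, and the median absolute difference was 0.21, against 0.36. The ranges of the WT and ced2 arrays did not overlap for 9 of the 10, and they did not overlap for 90.2% of all genes.

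Levels are given as log2 signal relative to the array's 75th percentile, so that 0 is the brightness that 75 percent of the probes fall below. Levels of different genes come from different probes and are not compared with each other. Over all 43533 probes, replicates differed by a median of 0.061 (WT) and 0.0545 (ced2) in log2 signal without regard to sign, and arrays of different genotype by 0.325 to 0.48. Probes well above background on all 4 arrays differed by 0.0456 (WT) and 0.034 (ced2), but those well above background on no array by 0.105 and 0.925, so the ced2 arrays lay far apart for dim probes. The same was seen over the 50 probes with repeat spots, of which only 17 were well above background on all arrays: the median SD between replicate arrays was 0.0579 for WT and 0.363 for ced2. The p-values rest on the spread between 2 pools per group, which limma moderates with a spread estimated over all genes tested. Where the pools lay very close, the shared part dominates. CYP86A8, with SDs of 0 (WT) and 0.001 (ced2), has an SE of 0.021. Since these are whole seedlings, fewer cells of a type and less RNA per cell cannot be told apart.

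**Figure D1:**
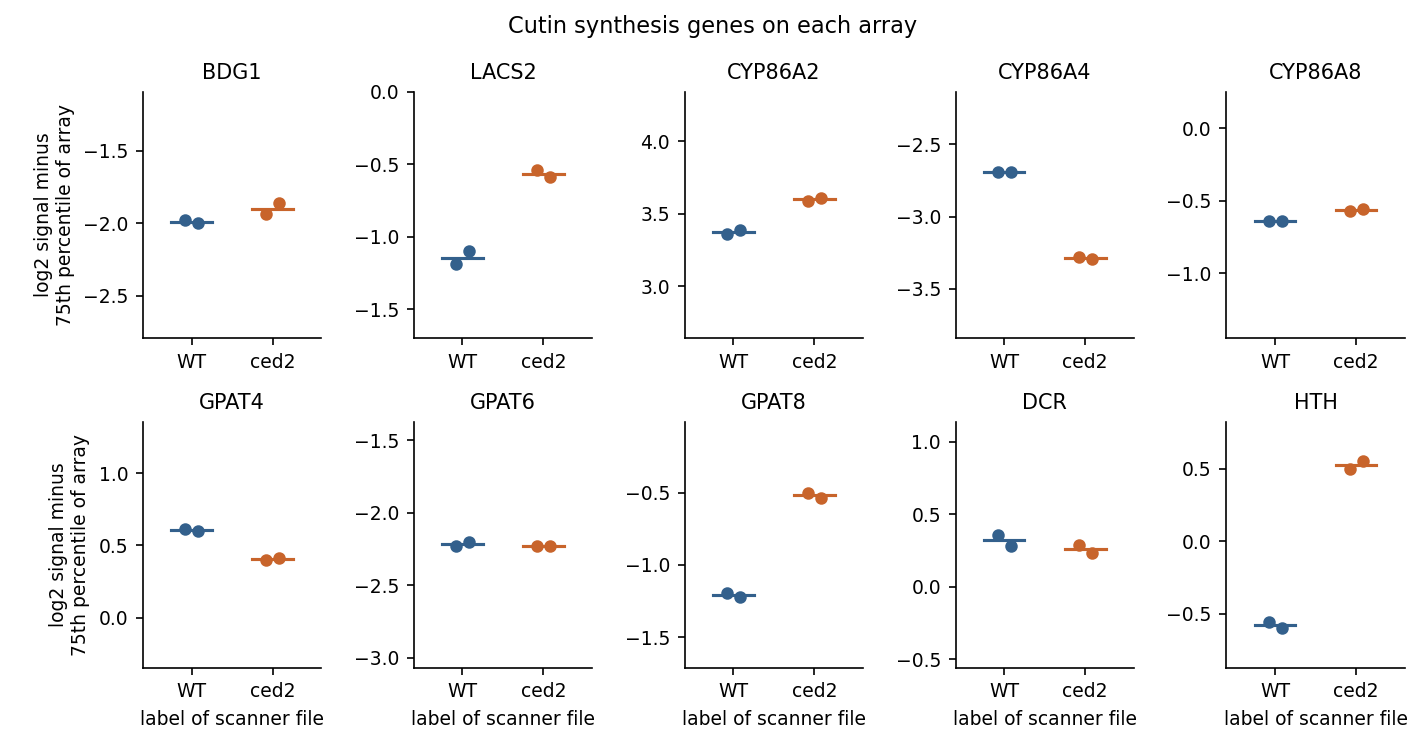
Log2 signal minus the array's 75th percentile for each cutin synthesis gene (points: single arrays; lines: means of the 2 arrays), with the same height of axis in every panel. HTH, GPAT8 and LACS2 stand clearly higher in the ced2 files and CYP86A4 lower, while the points of DCR overlap between the groups.

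BDG1 read -1.98 and -2 on the WT arrays and -1.94 and -1.86 on the ced2 arrays. Both ced2 arrays were slightly higher, and the distance between the groups was about that between the ced2 arrays. The log2 difference was 0.08 (SE 0.0371, 95% interval -0.02 to 0.19, n = 2 per group, limma adjusted p = 0.114). Its sign depended on the scaling: the difference was -0.0367 with quantile normalization and -0.0136 with normexp background correction (adjusted p = 0.41 and 0.827). Without ced2 replicate 2 it was 0.0456 (adjusted p = 0.375). Before any scaling the spot intensities were 850 and 702 for WT and 969 and 1230 for ced2, a log2 difference of 0.50, of which 0.41 was the difference between the groups in the 75th percentile. BDG1 was measured by a single probe, well above background on all 4 arrays.

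LACS2 encodes a long-chain acyl-CoA synthetase that activates fatty acids for cutin. Its level was -1.19 and -1.10 on the WT arrays and -0.54 and -0.59 on the ced2 arrays. The ced2 arrays were both higher and the groups lay far apart beside their spread. LACS2 rose by 0.58 (SE 0.0448, limma adjusted p = 0.00122). A second probe of the gene rose by 0.66, from -1.73 ± 0.014 (SD, n = 2) to -1.07 ± 0.039, so both probes gave the same direction.

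The 3 P450 genes of the set differed in direction. CYP86A4 encodes a fatty acid omega-hydroxylase, studied above all in floral cutin. It was at -2.69 on both WT arrays and at -3.28 and -3.29 on the ced2 arrays, and fell by 0.60 (SE 0.0213, adjusted p = 0.00028). This was the lowest difference among the 10 genes, at the 10.1 percentile of all differences. With quantile normalization and with normexp the fall was larger (lowest value -0.81 over 11 settings).

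CYP86A2, also known as ATT1, encodes an omega-hydroxylase of leaf cutin. Its level was 3.36 and 3.39 on the WT arrays and 3.59 and 3.61 on the ced2 arrays. Both ced2 arrays were higher, by much more than replicates differed, though the size was small: it rose by 0.22, or 1.17-fold (SE 0.0257, adjusted p = 0.00338). A second CYP86A2 probe was well above background on only 1 of the 4 arrays and was not tested. With the mean over both probes the difference was 0.421 (adjusted p = 0.0116). CYP86A8, the LACERATA hydroxylase, read -0.64 on both WT arrays and -0.57 and -0.56 on the ced2 arrays. The difference of 0.08 (95% interval 0.01 to 0.14, adjusted p = 0.0367) passed, but the call was lost with quantile normalization (adjusted p = 0.0875), with normexp (0.342), without the filter on dim probes (0.0561) and without any 1 of the 4 arrays (adjusted p from 0.093 to 0.174). It was also lost with the replicate number as a block (adjusted p = 0.0768).

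The acyltransferases GPAT4, GPAT6 and GPAT8 transfer hydroxylated acyl chains to the middle position of glycerol and remove the phosphate, which yields monoacylglycerol building blocks. GPAT4 and GPAT8 are known to act redundantly in leaf and stem cutin. GPAT8 read -1.19 and -1.22 on the WT arrays and -0.50 and -0.54 on the ced2 arrays. It rose by 0.68 (SE 0.027, adjusted p = 0.000327). GPAT4 went the other way: its level was 0.61 and 0.60 on the WT arrays and 0.40 and 0.41 on the ced2 arrays, and it fell by 0.20 (SE 0.0212, adjusted p = 0.00266). The 95% intervals, 0.60 to 0.76 for GPAT8 and -0.26 to -0.14 for GPAT4, lie on opposite sides of 0. Both calls held in direction and threshold under all 11 alternative settings run on the scanner files, each of which also subtracted the 75th percentile. Before any scaling GPAT4 read 5090 and 4260 for WT and 4920 and 5920 for ced2, a log2 difference of 0.21. The 75th percentile differed by 0.41 between the groups, so the sign for GPAT4 rests on that scaling. For GPAT8 the unscaled difference was 1.1.

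All 3 probes of GPAT8 rose. The brighter pair gave 0.68 and 0.84, and the dimmest, at -4.23 ± 0.032 (SD, n = 2) on the WT arrays and -3.34 ± 0.007 on the ced2 arrays, gave 0.88. With normexp the 3 differences were 0.613, 0.661 and 0.212. GPAT4 had a single probe. Transcripts of such close relatives may share hybridisation, and probe sequences were not used here.

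GPAT6, known for its part in floral cutin, gave no settled direction. The probe that represents it read -2.23 and -2.20 on the WT arrays and -2.23 on both ced2 arrays, a difference of -0.01 (95% interval -0.08 to 0.05, adjusted p = 0.647). A dimmer second probe read -6.50 and -6.56 on the WT arrays and -6.25 and -6.14 on the ced2 arrays, which is 0.34 higher in the fit over all probes (adjusted p = 0.00996). With normexp that probe was lower, at -1.05, and the first probe also passed as lower (-0.195, adjusted p = 0.023). Quantile normalization gave -0.146 for GPAT6 (adjusted p = 0.00721), and the mean of both probes gave 0.163 (adjusted p = 0.0144).

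**Figure D2:**
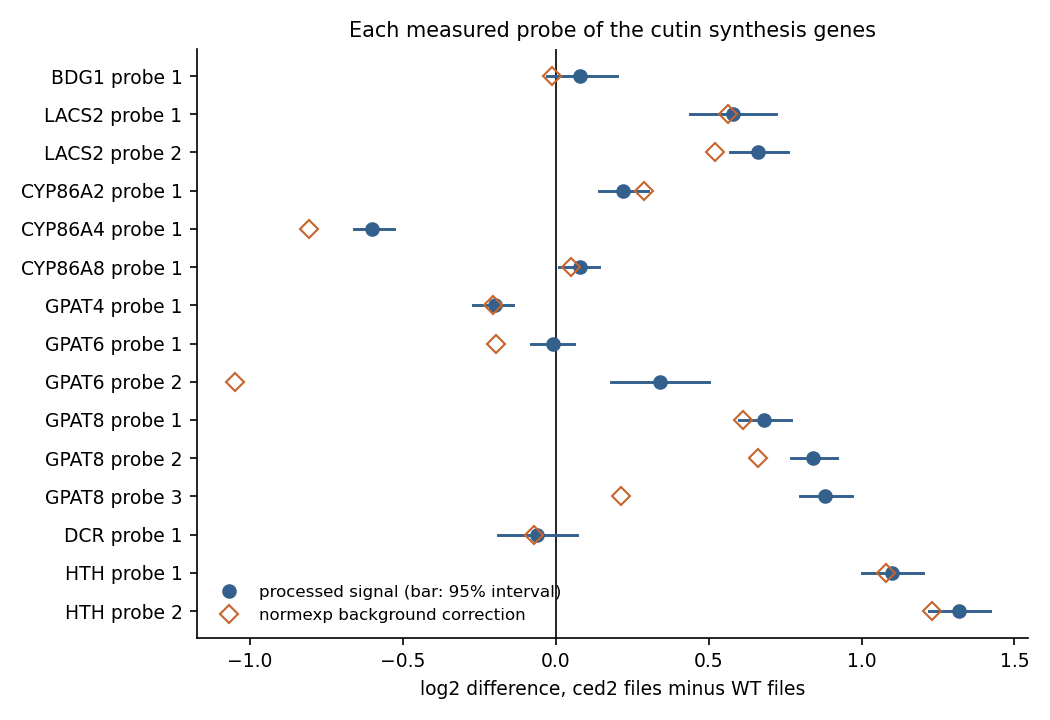
Log2 difference (ced2 files minus WT files) of each tested probe of the cutin synthesis genes, from the processed signal with 95% interval (filled circles) and after normexp background correction (open diamonds), brightest probe of a gene first. Probes of LACS2, GPAT8 and HTH agree in direction with each other, and the second GPAT6 probe changes sign, from 0.34 to -1.05.

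HTH, the HOTHEAD gene, encodes an oxidoreductase-like protein thought to act on hydroxy fatty acids in the formation of dicarboxylic acids, and its mutants show fused floral organs. HTH had the highest difference of the 10 genes. Its level was -0.56 and -0.60 on the WT arrays and 0.50 and 0.55 on the ced2 arrays. Every ced2 value lay more than the whole replicate spread above every WT value, and HTH rose by 1.1 (SE 0.0323, 95% interval 1.01 to 1.20, adjusted p = 0.000225). Over all genes tested, 93.1% of differences were no higher. The second probe gave 1.32, and with normexp the probes gave 1.08 and 1.23. One more HTH probe, matched to another transcript of the gene, was not well above background on any array and was not tested.

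DCR encodes an acyltransferase of the BAHD family that is needed to build hydroxylated fatty acids into cutin. It read 0.36 and 0.28 on the WT arrays and 0.29 and 0.23 on the ced2 arrays. These ranges overlapped. The difference was -0.06 (95% interval -0.19 to 0.07, adjusted p = 0.278), which leaves room for a change of that size in either direction. It ranged from -0.1 to -0.02 over fits that left out 1 array, and none passed.

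**Figure D3:**
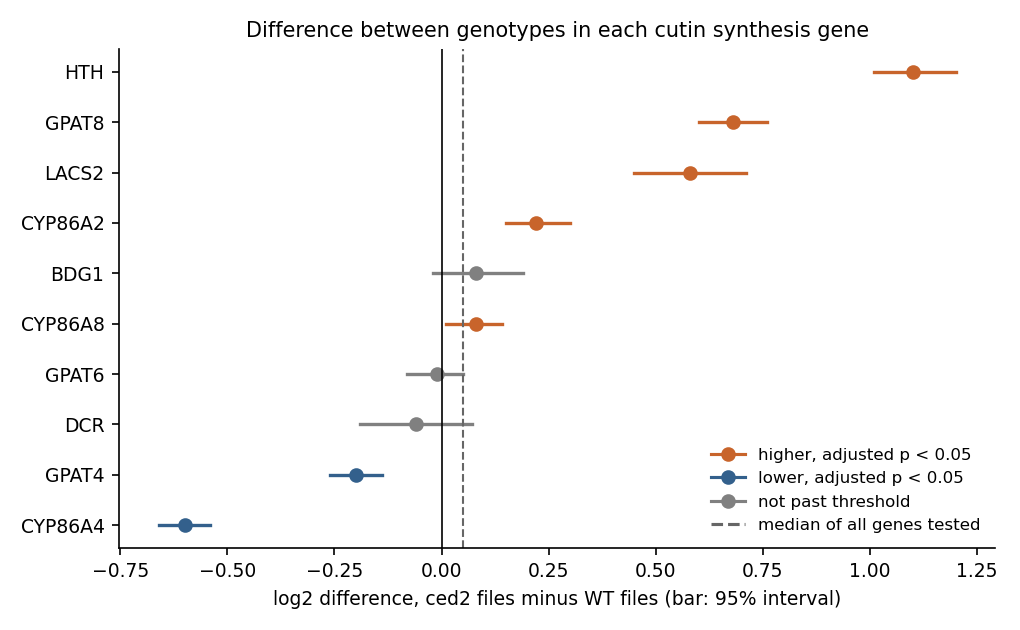
Log2 difference between ced2 files and WT files for each cutin synthesis gene with its 95% interval, ordered by size and coloured by the limma call. The range runs from -0.60 for CYP86A4 to 1.1 for HTH, and the dashed line marks the median of all genes tested, 0.05.

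Position in the genome, which played no part in the choice of the set, sorted 4 of the genes into pairs of a P450 and an acyltransferase. In the RefSeq gene order CYP86A4 and GPAT4 are direct neighbours on chromosome 1, with 0 genes between them. CYP86A2 and GPAT8 lie close together on chromosome 4, with 5 genes between them, 3 of them protein-coding. Both genes of the first pair fell, by 0.60 and 0.20, and both genes of the second pair rose, by 0.22 and 0.68. Before any scaling CYP86A4 differed by -0.19 and GPAT4 by 0.21, and CYP86A2 and GPAT8 by 0.64 and 1.1. The nearest other pair of the set, GPAT6 and CYP86A8, has 847 protein-coding genes between its members. This arrangement was noticed after the values were seen and was not tested.

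Probe by probe, 17 probes matched the 10 genes and 15 were bright enough to test. In the fit over all 33211 probes tested, 12 of the 15 passed, 10 as higher and 2 as lower, while 74.1% of all probes tested passed, 39.3% as higher and 34.8% as lower. Of the 10 higher probes, 7 belong to GPAT8, HTH and LACS2 and are repeated measures of the same genes. With normexp the split was 7 higher and 4 lower.

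**Figure D4:**
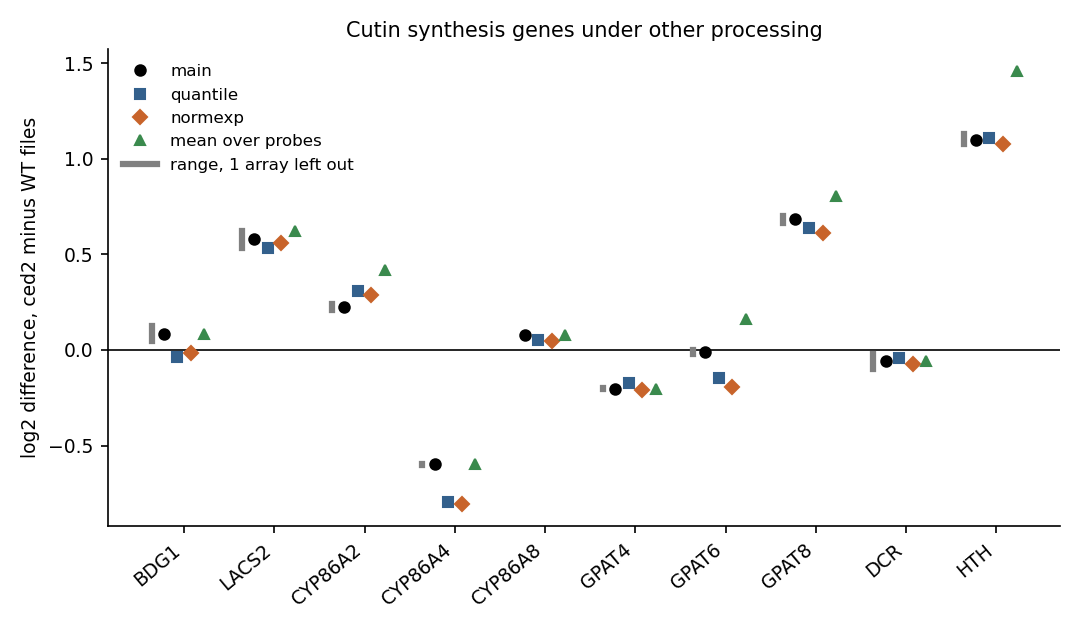
Log2 difference of each cutin synthesis gene under the main processing, quantile normalization, normexp and the mean over probes, with the range over fits that leave out 1 array (grey bars). HTH, GPAT8, LACS2 and CYP86A2 stay above 0 and CYP86A4 and GPAT4 below 0, while BDG1 and GPAT6 cross 0.

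Genes that act beside the set, and the tissue markers, were read from lists chosen by function. Earlier results of these data were known at that point, so the lists were not blind to the data. Among 12 genes for export, assembly and other steps of cuticle formation, not all of them particular to cutin, 9 fell, 2 rose and 1 did not pass. Of all genes 35.6% fell and 42.4% rose. The list's median was -0.45. The transporters ABCG11 and ABCG12, which carry cuticle lipids across the plasma membrane, fell by 0.69 and 0.66 (limma adjusted p = 0.000252 and 0.000265), and ABCG13, a transporter of floral cuticle lipids, fell by 1.07 (adjusted p = 0.00523). ABCG32, a transporter of cutin precursors, did not pass (-0.04, adjusted p = 0.237), and its sign turned with normexp (0.0194). FDH, a ketoacyl-CoA synthase also called FIDDLEHEAD, fell by 0.48. The locus AT5G33370 fell by 1.02, well above background on both WT arrays and 1 ced2 array, and the size of its fall was unsettled: -1.54 with normexp and -2.62 with the mean over its 2 probes. It entered the test through the WT arrays alone. With well above background required on all 4 arrays, 8 of 11 tested genes of the list fell. LTL1, a lipase, rose 4.51-fold, from -2.97 ± 0.028 (SD, n = 2) to -0.80 ± 0.002 (adjusted p = 0.00016), and DCF, which is needed for ferulate in cutin, rose by 0.65. ABCG11, ABCG12, ABCG32, FDH and DCF were chosen as examples after their values were seen.

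Of 12 regulators of the cuticle, 10 were bright enough to test: 7 fell, 2 rose and 1 did not pass, with a median of -0.29. The 2 rises were MYB30 (0.59) and AT2G33510 (0.39), and DEWAX was among those that fell (-0.28). MYB30, AT2G33510 and DEWAX were named after their values were seen, and their values under the alternatives are not given. The list was not sorted into activators and repressors, so its counts give no direction for cuticle activation. Over all genes 35.6% fell and 42.4% rose. SHN2, of the SHINE family of cutin activators, read -4.08 and -4.17 on the WT arrays and -7.09 and -7.08 on the ced2 arrays. The groups lay far apart, and SHN2 fell by 2.96, or 7.79-fold (adjusted p = 0.00016), or by 2.26 with normexp. The dimmest signal rated well above background was -7.14 on ced2 replicate 1 and -8.62 on ced2 replicate 2. On ced2 replicate 1 SHN2 lay near that limit, so the size of its fall is less certain. SHN1 and SHN3 were not well above background on any array. MYB106, an activator of cutin genes in the epidermis, fell by 1.11 (adjusted p = 0.00581). MYB94 and MYB96, activators of wax genes under drought, fell by 0.73 and 0.54 (adjusted p = 0.00124 and 0.000767). MYB41, a stress-induced regulator of cuticle and suberin genes, differed by -0.10 and did not pass (adjusted p = 0.0675), though it passed as lower with quantile normalization (adjusted p = 0.0108), normexp (0.017) and an intensity trend (0.04).

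The list fixed beside BDG1 holds 4 loci that the reference table leaves unnamed. AT4G24140 rose by 0.97 (adjusted p = 0.000347), from -2.74 ± 0.020 (SD, n = 2) to -1.77 ± 0.060, or by 0.641 with normexp. AT5G17780 rose by 0.19 (0.112 with quantile normalization), a call lost with normexp (adjusted p = 0.0581) and without ced2 replicate 1 (adjusted p = 0.0544). AT5G41900 fell by 0.19 (adjusted p = 0.00523), a call lost with an intensity trend (adjusted p = 0.0977), and its difference was -0.396 with quantile normalization and -0.943 with normexp. AT5G17720 was too dim to test.

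**Figure D5:**
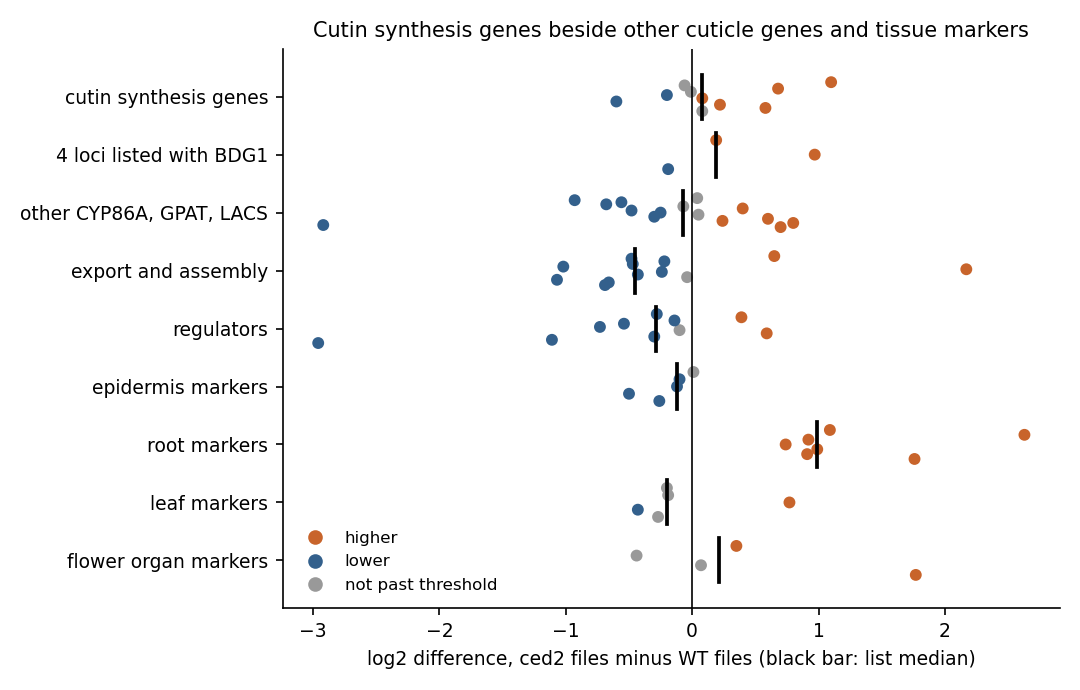
Log2 difference of every tested gene in the cutin synthesis set, in other cuticle lists and in lists of tissue markers (points: genes, coloured by call; black bars: list medians). The cutin synthesis genes centre near 0 with a median of 0.08, the export and regulator lists lie mostly below 0, and the root markers lie above 0; the point of CYP86A7, at -2.92, comes from a gene not well above background in the ced2 files.

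Tissue markers also differed between the genotypes, the root markers as a whole list and the others only in part. Of 5 epidermis markers, 4 fell, beside 35.6% of all genes that fell, and HDG2 did not pass (0.01, adjusted p = 0.649). The share past the threshold, 80%, is near the 77.9% of all genes. PDF1, a protein of the outermost cell layer, fell by 0.50 (adjusted p = 0.000891), and ATML1, a master regulator of epidermal identity, by 0.26 (adjusted p = 0.00204, and -0.528 with the mean over probes). PDF2 and the receptor kinase ACR4 fell by 0.12 and 0.10 (adjusted p = 0.037 and 0.026), and neither call was stable. Both were lost with the replicate number as a block (adjusted p = 0.0741 and 0.0595) and in fits that left out 1 array, PDF2 in 3 of the 4 and ACR4 in all 4. The PDF2 call was also lost with quantile normalization (adjusted p = 0.0822), normexp (0.0969) and no filter on dim probes (0.0679), and with the mean over its probes the difference was -0.00101 (adjusted p = 0.969). ACR4 fell further with quantile normalization (-0.247) and normexp (-0.279). The summed level of the 5 markers, in units of the array's 75th percentile, was 8.13 and 8.15 on the WT arrays and 6.65 and 6.73 on the ced2 arrays.

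All 7 root markers rose, by 0.74 to 2.63, beside 42.4% of all genes that rose. Their summed level was 24.0 and 24.4 on the WT arrays and 47.3 and 46.5 on the ced2 arrays. Most of this sum came from the brightest marker of the list, whose log2 level was 4.25 and 4.29 on the WT arrays and 5.20 and 5.15 on the ced2 arrays. CASP1, of the Casparian strip of the endodermis, rose by 2.63, COBL9, of root hairs, by 1.76 (1.1 with normexp), and the phosphate transporter PHT1;1 by 1.09 (adjusted p between 0.00016 and 0.000186). Of 5 leaf markers, LHCB2.1 rose by 0.77 (0.296 with the mean over probes), LHCB1.3 fell by 0.43 (adjusted p = 0.0419) and 3 did not pass, so 40% passed. The mean over the 2 probes of LHCB2.1 is so small because its dimmer probe was lower in the ced2 files. The LHCB1.3 call was lost in 7 of 11 alternatives: without WT replicate 1 (adjusted p = 0.0744), WT replicate 2 (0.161) or ced2 replicate 2 (0.113), with normexp (0.0632), without the filter on dim probes (0.0824), with the replicate block (0.099) and with quantile normalization, where the difference was -0.0288 (0.368). With the mean over probes it was -0.276. The summed level of the leaf list was 394 and 444 on the WT arrays and 367 and 316 on the ced2 arrays. No marker of these 3 lists was dim on all 4 arrays. The part of these shifts in the rise of HTH, GPAT8 and LACS2 or in the fall of CYP86A4 and GPAT4 was not tested.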

How the data were processed

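Total RNA (0.3 µg per labelling, dye Cy3) was measured on 4 one-colour arrays, 2 per genotype. Spot values came from Agilent Feature Extraction, version 10.7.1.1, per the submitters' processing notes. Per the file headers, the deposited intensity is a background-subtracted, spatially detrended signal, not normalized between arrays. The authors' deposited value table holds log2 values of unstated scaling. Set against the scanner files, it matched log2 signals scaled by the 75th percentile and then centred on each probe's median (column medians between -0.033 and 0.079). The genotype of its columns is unsettled.

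The members and lists were chosen with earlier results of these data known. Control and outlier spots were left out, repeat spots averaged, and 70 of 43603 probes dropped. Probes were named by unversioned accession from a RefSeq table (TAIR10.1, names and gene order only, since the array header names another build), which named 34236 probes. Values are log2 signals minus the 75th percentile of each array. A gene is represented by its brightest probe, which had to be well above background throughout 1 genotype or the other for the gene to be tested. Groups were compared with limma 3.58.1 (R 4.3.3; lmFit, eBayes, two-sided, ced2 minus WT, 2 residual and an estimated 1.49 prior degrees of freedom), and p-values were adjusted by Benjamini-Hochberg across every gene tested. Every adjusted p is limma's. The number of arrays limits the precision. The fit was tested on simulated data with independent noise and few changed genes. That setting differs from these data and says nothing of effects of slide position. All 10 members are named. Of each other list up to 3 genes are named, those past the threshold, without overlap between groups, that differed most in size, besides 3 regulators, 2 loci beside BDG1, the epidermis and flower markers, VSR1 and NCED3; further examples are marked as such. Alternatives were quantile normalization, normexp (offset 50, on median spot intensities), other filters on dim probes, the value table, the mean over probes, a replicate block, an intensity trend and leaving out each array.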

Additional observations from a re-analysis of the deposited data

How the results depend on the processing

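Of the 10 cutin synthesis genes, 7 kept their direction and their side of the threshold under all 11 alternatives run on the scanner files: LACS2, CYP86A2, CYP86A4, GPAT4, GPAT8, DCR and HTH. BDG1, CYP86A8 and GPAT6 did not, with values given beside each gene. The number of the 10 past the threshold was 7 in the main setting and between 6 and 8 over the alternatives (6 without each array in turn, 8 with the mean over probes). Leaving out each array in turn gave between 13833 and 15121 genes past the threshold, against 16239. Of the 45 named genes followed under the alternatives, 31 kept direction and side of the threshold under every alternative that gave a value on the scanner files. For ABCG11, ABCG12, ABCG32, FDH and DCF these alternatives were added after seeing the data. The median difference of all genes moved from 0.047 to -0.14 with normexp, so small differences there are relative to that shift. Of genes past the threshold 54.4% were higher in the main setting, 50.9% with quantile normalization and 36.4% with normexp.

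The replicate numbers did not pair the arrays (r = 0.0631 between deviations of same-numbered arrays). With the replicate number as a block, 15687 genes and 6 of the 10 passed, the lost one being CYP86A8. Among the other named genes the block ended the calls of PDF2, ACR4 and LHCB1.3.

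Signs that turned were those of BDG1 with quantile normalization (-0.0367) and normexp (-0.0136), GPAT6 with the mean over probes (0.163), and HDG2 with these settings in turn (-0.0442, -0.056 and -0.353) and without WT replicate 2 (-0.00632). AP3 and ABCG32 turned with normexp (-0.504 and 0.0194), PI with quantile normalization (-0.136), normexp (-0.268) and without WT replicate 2 (-0.00081), and AG without ced2 replicate 1 (0.362). Over the fits that left out 1 array, HDG2 ranged from -0.00632 to 0.0345, PI from -0.00081 to 0.146 and AG from -1.24 to 0.362. The cause was not tested. Under the labels of the authors' value table the differences of all 45 turned, because its columns carry the opposite genotype: BDG1 -0.0834, LACS2 -0.578, CYP86A2 -0.223, CYP86A4 0.6, CYP86A8 -0.0757, GPAT4 0.203, GPAT6 0.013, GPAT8 -0.683, DCR 0.0607, HTH -1.1, AT5G41900 0.187, AT4G24140 -0.969, MYB41 0.1, MYB96 0.539, ATML1 0.265, PDF1 0.505, PDF2 0.123, ACR4 0.0975, HDG2 -0.0133, AP3 -1.77, PI -0.0716, AG 0.439, SEP3 -0.35, VSR1 3.67, NCED3 1.33, AT5G17780 -0.188, CYP86A7 2.92, LACS8 0.933, GPAT1 -0.799, LTL1 -2.17, ABCG13 1.07, AT5G33370 1.02, SHN2 2.96, MYB106 1.11, MYB94 0.735, CASP1 -2.63, COBL9 -1.76, PHT1;1 -1.09, LHCB2.1 -0.767, LHCB1.3 0.429, ABCG11 0.689, ABCG12 0.662, ABCG32 0.0396, FDH 0.48, DCF -0.647.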

Other observations

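Beyond the cutin synthesis genes, the other members of the same enzyme families were mixed. Of 16 such genes, 15 were tested: 5 rose, 7 fell and 3 did not pass, with a median log2 difference of -0.07. The share past the threshold was 80%, near the 77.9% of all genes, of which 42.4% rose and 35.6% fell. GPAT1, an acyltransferase known from the tapetum of anthers, rose by 0.80 (limma adjusted p = 0.000292), from -1.77 ± 0.036 (SD, n = 2) to -0.97 ± 0.010. LACS8, an acyl-CoA synthetase, fell by 0.93 (adjusted p = 0.000258), from 3.89 ± 0.028 to 2.96 ± 0.033. CYP86A7 was well above background on both WT arrays and on neither ced2 array. It entered the test through the WT arrays alone, so no p-value is given for its call, which is counted among the 7 that fell. Its signal on the ced2 arrays was at least 2.47-fold lower. For that bound each ced2 array entered with whichever was higher, the signal of this probe or the dimmest signal that the scanner software still rated well above background.

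Flower organ regulators were included because several cutin genes are best known from flowers. AP3 rose by 1.77 (adjusted p = 0.00146) at a dim level, from -7.05 ± 0.271 to -5.28 ± 0.029, and turned to -0.504 with normexp (adjusted p = 0.0147). SEP3 rose by 0.35 (adjusted p = 0.00192), or by 0.193 with normexp. PI and AG did not pass (0.07 and -0.44). With normexp PI passed as lower, at -0.268 (adjusted p = 0.00426), and the difference of AG was -1.3. AG entered the test through the WT arrays alone, so no p-value is given for it. PI passed as higher without WT replicate 1 (0.146, adjusted p = 0.0451). AG was dim on ced2 replicate 1. Its difference was 0.362 without that array and -1.24 without ced2 replicate 2, while the mean over its probes gave -0.0114. The summed level of the 4 genes was 0.369 and 0.347 on the WT arrays and 0.441 and 0.448 on the ced2 arrays.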
